A study of Mus musculus with 6 samples.

Results

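A set of 36 interferon-stimulated genes outside the Oas, Ifit, Slfn, Ifi200, Gbp, Irf and Ly6 families were followed in regulatory T cells (Tregs), the CD4 T cells that hold immune responses in check. They were chosen by a list of gene symbols and made up 36 of the 37187 genes in the count table. All 36 were found there by Ensembl ID, and all 36 passed the filter on low counts. RNA came from 3 libraries of il33-/- mice on a C57BL6 background (KO, replicates 4 to 6) and 3 libraries of C57BL6 mice (WT, replicates 1 to 3). Every mouse carried B16.F10 melanoma, a transplantable mouse tumour line, given as 300000 cells under the skin. On day 14 the tumour-draining lymph nodes were taken and CD4+CD25+GITR+ cells were sorted. IL-33 is an alarmin cytokine that Tregs read through the receptor ST2, and the comparison asks how its loss in the host altered the cells. The labels do not say whether each library came from its own animal, so the spread behind each p-value is that between these libraries and may be technical.

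Type I interferons bind the receptor IFNAR1/IFNAR2 on nearly all nucleated cells. The receptor's kinases JAK1 and TYK2 then activate STAT2, which acts with IRF9 in the complex ISGF3. This complex binds the interferon-stimulated response element (ISRE) in the promoters of antiviral genes, many of which are also transcribed at a low level without infection. The genes followed here encode sensors of viral RNA, enzymes that block viral replication, the ubiquitin-like protein ISG15 with its ligase and protease, and STAT2 itself.

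Total counts ran from 20877014 to 21073195 in KO libraries and from 18071928 to 21165063 in WT libraries. Il33 had 3, 8 and 2 counts in KO replicates 4, 5 and 6 and 7, 0 and 9 counts in WT replicates 1, 2 and 3, too few to check the labels. The Treg label fitted its markers, since Foxp3 stood at 857, 790 and 849 CPM (counts scaled to a common library size with TMM factors) in KO and at 730, 803 and 719 CPM in WT. Foxp3 was not used in the sort. Transcripts of B cells stood apart between the groups. Over 16 B cell markers the summed level was 426.8, 556.7 and 334.6 CPM in KO replicates 4, 5 and 6 and 2151, 1169 and 1653 CPM in WT replicates 1, 2 and 3. In WT replicate 2, 558.3 CPM of that sum was Cd72 alone, against 41.2 to 86.1 CPM of Cd72 elsewhere, and the other 15 markers came to 610.4 CPM there. In bulk RNA, fewer cells of a type and less RNA per cell cannot be told apart.

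Part of the interferon-stimulated genes was lower in KO Tregs, and none passed upward. The 6 that fell were Samd9l, Trim25, Cmpk2, Usp18, Ddx58 and Mx2, with changes between -13.8% and -40.9%. The other 30 did not pass at an adjusted p of 0.05 by edgeR's quasi-likelihood test. The 6 called lower were 16.7% of the 36, while 2.83% of all 13626 genes tested were called lower and 3.68% higher. Upward, 0 of the 36 passed by edgeR, DESeq2 or limma-voom, and 1, Ifi27, had an unadjusted p under 0.05. DESeq2 called 11 of the 36 lower (background 4.11% lower and 3.63% higher), and limma-voom called 4 (background 2.22% lower and 2.91% higher). Log2 fold changes (KO over WT) were negative for 32 of the 36, with a median of -0.20 and quartiles of -0.32 and -0.11. Without WT replicate 2 the median was -0.10. Over all genes tested the median was 0.00, the quartiles were -0.12 and 0.13, and 49.9% were negative. In 10 of the 36 every KO library lay below every WT library (27.8%, against 12.6% of all genes). Ifi27 was the one gene with every KO library above every WT library (2.78%, against 13.7% of all genes). The number called lower depended on which library was left out. It was 3 without KO replicate 4 (2.62% of all genes called lower) and 2 without KO replicate 6 (0.964% of all). Without KO replicate 5 it was again 6, with 167 of all genes called lower, but these were not the same 6 genes. Mx2 and Ddx58 lost their calls there, and Mx1 and Rsad2 gained them. The number was 11 without WT replicate 1 (1.24% of all), 3 without WT replicate 2 (5.26% of all lower and 4.47% higher) and 2 without WT replicate 3 (0.918% of all).

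**Figure D1:**
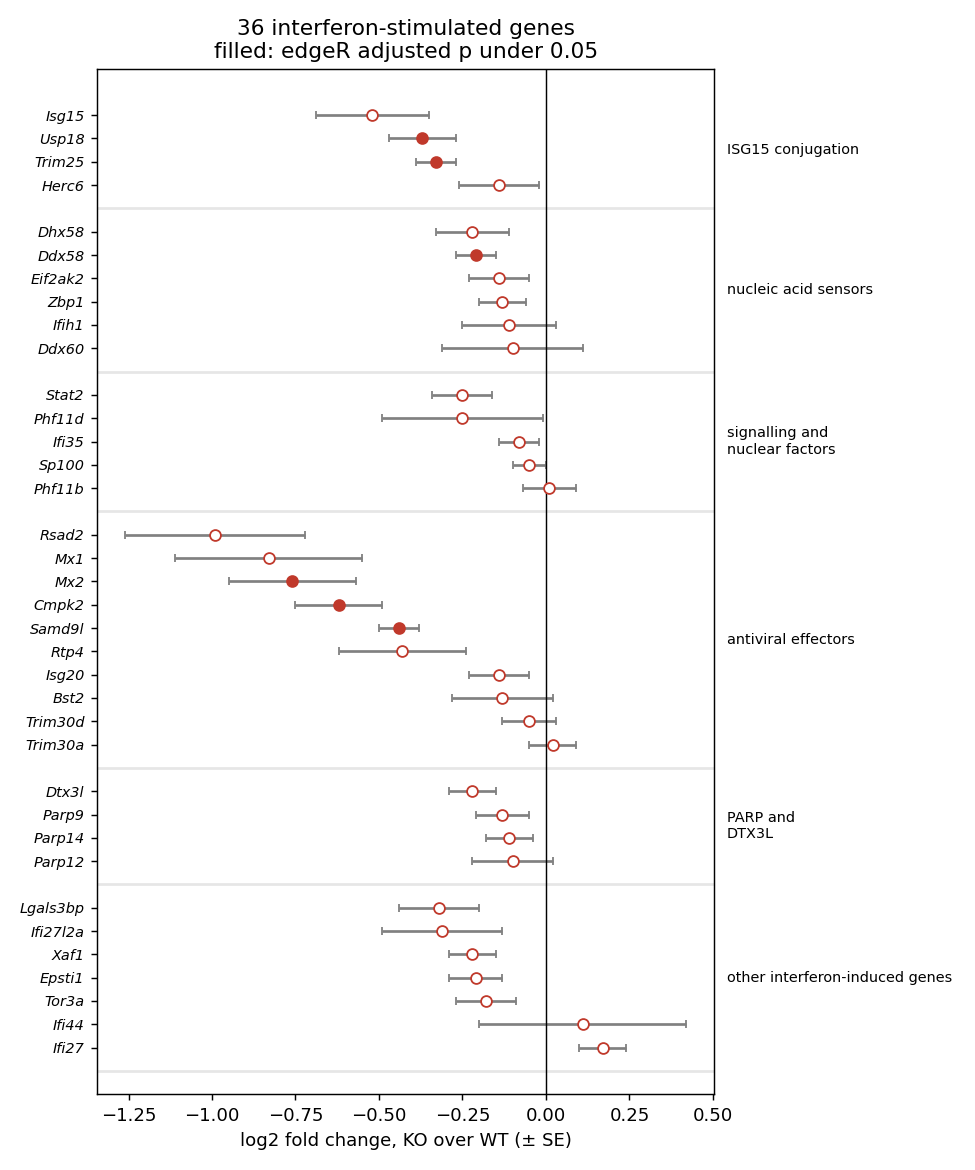
Log2 fold change of each of the 36 genes (x axis, KO over WT, with its standard error), grouped by role down the page; filled points passed by edgeR (adjusted p under 0.05). All 6 filled points lie left of 0, and the antiviral effectors spread from -0.99 for Rsad2 to 0.02 for Trim30a.

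The binding element of ISGF3 was present in the near promoters of some of these genes. RefSeq windows on GRCm38.p6 were at hand for 25 of them, and the 250 bases before each start were searched on both strands for an ISRE, written as GAAA, any 2 bases and GAAA again. It was found in 8 of the 25 (32%, against 3.46% of 27025 genes with such windows), with more than 1 match in Isg15, Ddx60 and Bst2. Of the 6 genes that fell, 4 had a window (Samd9l, Trim25, Cmpk2 and Ddx58) and 0 of these held a match, while 8 of the 21 others did. The shorter GAAANNGAA, which lies within the longer form, was in 10 of the 25 genes (40%, against 8.18% of all), Trim25 among them. The gamma-activated site TTCNNNGAA was in 3 of the 25 (12%, against 8.13% of all). These 4 windows are shown for contrast, chosen after their values were seen: Samd9l fell with no match, Isg15 had 3 overlapping matches, Rsad2 had the most negative log2 fold change and Trim30d barely differed. Each is written 5′ to 3′ on the strand of its gene, with ISRE matches in capitals. Samd9l is at chr6:3399572-3399821, Isg15 at chr4:156200819-156201068, Rsad2 at chr12:26456453-26456702 and Trim30d at chr7:104507850-104508099, all on the minus strand of GRCm38.p6.
Samd9l: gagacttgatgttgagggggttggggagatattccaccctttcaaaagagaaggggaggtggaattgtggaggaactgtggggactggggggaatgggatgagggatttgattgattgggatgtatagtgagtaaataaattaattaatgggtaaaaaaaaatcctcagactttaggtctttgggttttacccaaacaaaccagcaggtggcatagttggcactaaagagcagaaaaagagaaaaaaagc
Isg15: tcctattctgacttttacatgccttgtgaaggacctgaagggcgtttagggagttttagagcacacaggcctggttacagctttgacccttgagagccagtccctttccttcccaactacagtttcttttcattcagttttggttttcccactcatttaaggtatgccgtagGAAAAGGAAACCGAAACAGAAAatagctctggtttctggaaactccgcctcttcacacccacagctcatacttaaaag
Rsad2: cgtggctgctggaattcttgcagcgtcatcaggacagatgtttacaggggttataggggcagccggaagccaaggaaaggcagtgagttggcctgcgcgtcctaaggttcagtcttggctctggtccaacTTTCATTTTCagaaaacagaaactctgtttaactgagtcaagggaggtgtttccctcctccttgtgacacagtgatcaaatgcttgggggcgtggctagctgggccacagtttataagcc
Trim30d: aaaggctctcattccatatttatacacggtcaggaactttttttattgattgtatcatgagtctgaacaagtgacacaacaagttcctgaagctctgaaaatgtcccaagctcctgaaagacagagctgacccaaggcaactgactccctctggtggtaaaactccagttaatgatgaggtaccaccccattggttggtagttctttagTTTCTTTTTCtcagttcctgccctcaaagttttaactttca

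The match nearest the start ended 56 bases before it in Isg15, 110 in Rsad2 and 31 in Trim30d. A match is a run of letters and not a measured binding site, and its absence here says nothing of sites elsewhere.

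Of the genes grouped here with Isg15, Usp18 and Trim25 fell, and Isg15 itself and Herc6 did not pass by edgeR. DESeq2 also called Isg15 lower (adjusted p = 0.013), and limma-voom did not call Usp18 (adjusted p = 0.0628). Trim25 encodes a ubiquitin ligase that acts with the RNA sensor RIG-I. It had 119.1, 130.3 and 123.1 CPM in KO replicates 4, 5 and 6 and 150.6, 163.2 and 154.9 CPM in WT replicates 1, 2 and 3. The groups were well apart, with a gap wider than the range within either one, and the log2 fold change was -0.33 (SE 0.06; adjusted p = 0.00561, edgeR). Usp18 removes ISG15 from proteins and also damps signalling at IFNAR2. Its levels were 42.8, 52.7 and 43.8 CPM in KO and 53.2, 64.8 and 62.1 CPM in WT. KO replicate 5 came close to WT replicate 1, and the log2 fold change was -0.37 (SE 0.10; adjusted p = 0.0420, edgeR). The call was lost in 4 of 6 fits that each left out 1 library, with adjusted p-values of 0.0718 to 0.166. Isg15 itself had 19.9, 22.8 and 18.5 CPM in KO and 22.7, 36.9 and 28.6 CPM in WT. WT replicate 1 sat just inside the KO range while WT replicate 2 was far above it, and the log2 fold change of -0.52 (SE 0.17) had an edgeR adjusted p of 0.117. Herc6, the main ISG15 ligase in mice, averaged 83.4 ± 5.18 CPM in KO and 91.9 ± 15.6 CPM in WT (SD, n = 3 each).

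Among the antiviral effectors, Samd9l, Cmpk2 and Mx2 fell and 7 others did not pass by edgeR. DESeq2 called these 3 and also Rsad2 (adjusted p = 0.000578) and Rtp4, and limma-voom called Samd9l, Cmpk2 and Mx1 (adjusted p = 0.0494) but not Mx2 (adjusted p = 0.0782). Samd9l, a large cytoplasmic protein that restricts viral replication, had the smallest p of the 36 genes. It stood at 444.7, 428.7 and 374.2 CPM in KO replicates 4, 5 and 6 and at 548.7, 584.6 and 563.0 CPM in WT replicates 1, 2 and 3. WT libraries agreed closely and KO replicate 6 was lowest, a change of -26.4% and of -0.44 on the log2 scale (SE 0.06, edgeR adjusted p = 0.00164). Samd9l and Trim25 were the genes of the 36 that passed in each of the 6 fits that left out 1 library, with largest adjusted p-values of 0.0166 and 0.0337.

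Cmpk2, a mitochondrial nucleotide kinase, and Rsad2, which encodes viperin, lie 12.8 kb apart in opposite orientation on chromosome 12. Cmpk2 had 18.3, 22.3 and 16.4 CPM in KO and 24.7, 30.9 and 32.0 CPM in WT, with a log2 fold change of -0.62 (SE 0.13; adjusted p = 0.0161, edgeR). It lost its call without KO replicate 4, KO replicate 6 or WT replicate 3, at adjusted p-values of 0.0574, 0.0717 and 0.0795. Rsad2 had 5.004, 9.29 and 6.24 CPM in KO and 9.82, 14.7 and 16.5 CPM in WT. Its groups did not overlap and its log2 fold change of -0.99 was the most negative of the 36, but the libraries of each group scattered widely (SE 0.27, edgeR adjusted p = 0.0772).

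Mx1 and Mx2 encode dynamin-like GTPases and are neighbours on chromosome 16. This strain is known to carry a defective Mx1 allele, and Mx2 is annotated as a polymorphic pseudogene, so these counts measure transcript alone. Mx2 had 8.25, 10.8 and 8.52 CPM in KO and 11.1, 16.7 and 18.9 CPM in WT, a log2 fold change of -0.76 (SE 0.19; adjusted p = 0.0471, edgeR). KO replicate 5 lay just under WT replicate 1, and the call held in 1 of the 6 fits without 1 library, with adjusted p-values of up to 0.173. Mx1 had 16.2, 27.5 and 16.8 CPM in KO and 28.7, 34.5 and 44.7 CPM in WT, with a log2 fold change of -0.83 (SE 0.28; adjusted p = 0.179, edgeR). Mx1 and Mx2 are related in sequence, so reads could have been split between them.

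**Figure D2:**
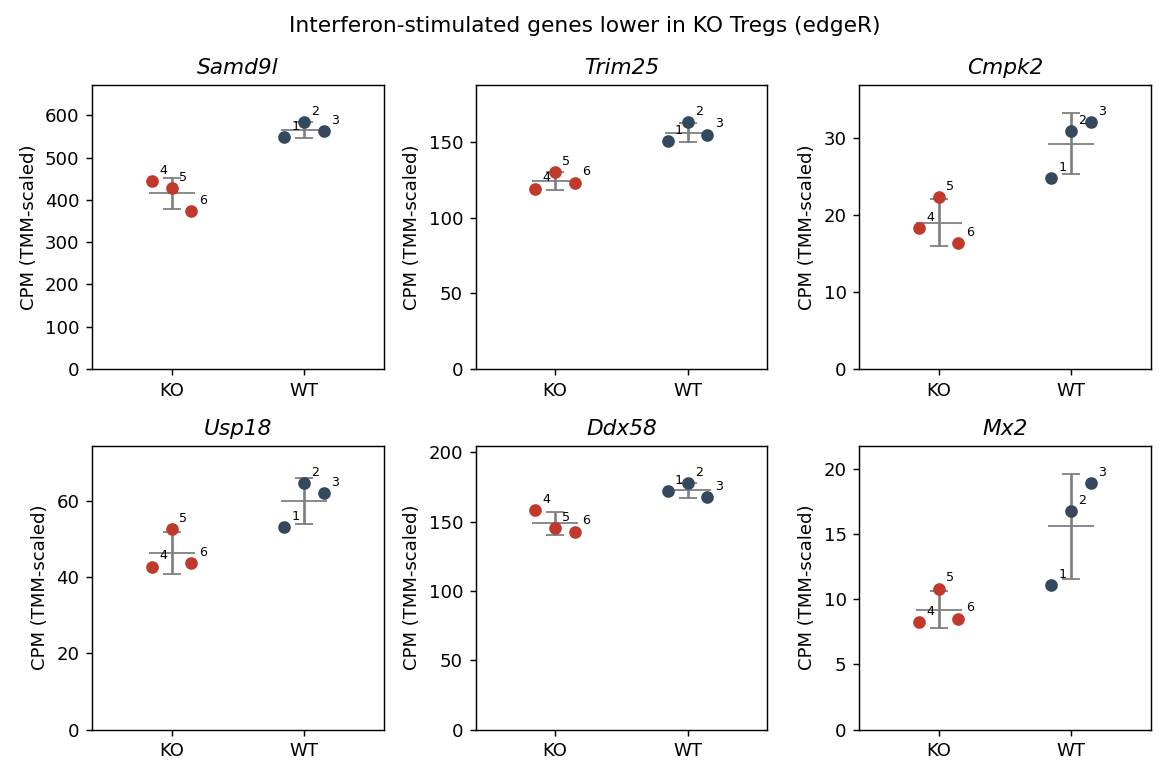
TMM-scaled CPM (y axis from 0) of the 6 genes called lower, in KO (left) and WT (right); points are libraries marked by replicate number, and bars give the mean and SD (n = 3 each). No KO point reaches a WT point in any panel, with the narrowest gap in Usp18 and Mx2 between KO replicate 5 and WT replicate 1.

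The other 5 effectors overlapped between the groups and did not pass by edgeR, while DESeq2 called Rtp4 lower (adjusted p = 0.0331). Bst2 encodes tetherin, which holds budding virions at the cell surface, and in mice it is also a marker of plasmacytoid dendritic cells. It had 61.6, 62.2 and 58.4 CPM in KO and 59.0, 83.5 and 57.3 CPM in WT, so that WT replicate 2 alone stood above the rest (edgeR adjusted p = 0.678). Rtp4 averaged 35.2 ± 5.52 CPM in KO and 47.5 ± 10.6 CPM in WT, and Isg20, an RNA exonuclease, 35.2 ± 1.91 CPM in KO and 38.7 ± 4.49 CPM in WT (SD, n = 3 each). The paralogs Trim30a and Trim30d, which lie 4.82 kb apart on chromosome 7, had log2 fold changes of 0.02 and -0.05 (SE 0.07 and 0.08), and reads could have been split between them. Without KO replicate 6 the value for Trim30d was 0.02, and without WT replicate 2 that for Bst2 was 0.07. Trim30d also overlaps the pseudogene Gm16464 on its own strand, which held 213 counts against 6545 for Trim30d over the 6 libraries.

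Of 6 sensors of nucleic acids, Ddx58 fell and 5 did not pass by edgeR, and limma-voom did not call Ddx58 (adjusted p = 0.0598). Ddx58, which encodes RIG-I, had 158.3, 145.1 and 142.7 CPM in KO and 171.7, 178.0 and 167.5 CPM in WT. The groups were separate, but the change was the smallest of the 6 that passed, at a log2 fold change of -0.21 (SE 0.06; adjusted p = 0.0470, edgeR). Leaving out 1 library ended the call in 5 of 6 fits, at adjusted p-values of 0.107 to 0.166. Ifih1, which encodes the related sensor MDA5, had 53.6, 55.0 and 49.2 CPM in KO and 46.7, 69.4 and 54.8 CPM in WT. WT libraries held both the lowest and the highest value, and the log2 fold change was -0.11 (SE 0.14; adjusted p = 0.707, edgeR). Zbp1, a sensor of Z-form nucleic acids, had 196.1, 192.2 and 180.4 CPM in KO and 188.7, 233.5 and 200.9 CPM in WT, again with WT replicate 2 alone well above the KO range (edgeR adjusted p = 0.338). Dhx58, Eif2ak2 and Ddx60, for LGP2, the kinase PKR and an RNA helicase, had log2 fold changes of -0.22 (SE 0.11), -0.14 (SE 0.09) and -0.10 (SE 0.21). Without WT replicate 2, Ifih1 and Ddx60 had positive log2 fold changes of 0.06 and 0.08. Dhx58 overlaps the antisense gene Dhx58os, which held 80 counts against 5388 for Dhx58 over the 6 libraries.

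Of 5 signalling and nuclear genes and of 4 in the PARP group, 0 passed by edgeR or limma-voom. DESeq2 called Dtx3l lower, and Stat2 and Dtx3l had an unadjusted p under 0.05. Stat2 had 163.0, 169.8 and 145.1 CPM in KO and 168.0, 212.4 and 186.1 CPM in WT. WT replicate 1 fell inside the KO range, and the log2 fold change was -0.25 (SE 0.09; adjusted p = 0.136, edgeR). Sp100, a component of nuclear bodies, averaged 669.1 ± 21.0 CPM in KO and 691.4 ± 20.9 CPM in WT (SD, n = 3 each). Ifi35, Phf11b and Phf11d had log2 fold changes of -0.08, 0.01 and -0.25 (SE 0.06, 0.08 and 0.24). The paralogs Phf11b and Phf11d may share reads. Dtx3l encodes a ubiquitin ligase that works in a complex with the ADP-ribosyltransferase family member Parp9. All KO values of Dtx3l lay below all WT values, at 183.7 ± 8.72 CPM in KO and 213.7 ± 20.7 CPM in WT, with an edgeR adjusted p of 0.0864. Parp9, which starts next to Dtx3l on the other strand and overlaps it by 682 bases, had a log2 fold change of -0.13 (SE 0.08). Parp14 and Parp12 had -0.11 (SE 0.07) and -0.10 (SE 0.12). Parp9 also overlaps the antisense gene Gm15564 by 5854 bases, which held 944 counts against 15467 for Parp9 over the 6 libraries. Whether strand was used in counting is not given, so reads in the overlaps of Parp9 with Dtx3l and with Gm15564 cannot be assigned.

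Of 7 further interferon-induced genes 0 passed by edgeR or limma-voom, and DESeq2 called 1 lower, Lgals3bp. An unadjusted edgeR p under 0.05 was found for 3 that were lower in KO and for Ifi27, which was higher. The share of all genes under that p in the main fit is not given, so such counts lack a background here. Xaf1, whose protein binds the apoptosis inhibitor XIAP, averaged 56.2 ± 4.17 CPM in KO and 65.3 ± 5.16 CPM in WT without overlap (edgeR adjusted p = 0.108). Lgals3bp, a secreted glycoprotein, averaged 82.1 ± 5.65 CPM in KO and 102.4 ± 17.5 CPM in WT, and Epsti1 129.4 ± 7.99 CPM in KO and 149.8 ± 18.6 CPM in WT (SD, n = 3 each). Tor3a, a torsin ATPase, had a log2 fold change of -0.18 (SE 0.09). Ifi44 was among the lowest of the 36, with 58, 84 and 38 counts in KO and 37, 62 and 54 in WT. The neighbours Ifi27 and Ifi27l2a, 1.93 kb apart on chromosome 12, encode small hydrophobic proteins of one family. Ifi27 had 76.9, 74.9 and 83.3 CPM in KO and 69.5, 74.1 and 65.6 CPM in WT, with a log2 fold change of 0.17 (SE 0.07; adjusted p = 0.157, edgeR). Ifi27l2a had 177.4, 197.5 and 176.7 CPM in KO and 179.9, 282.6 and 220.0 CPM in WT, with a log2 fold change of -0.31 (SE 0.18; adjusted p = 0.401, edgeR). As these are related genes, reads could have been shared between them, and the difference between their changes was not tested.

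Ranked per length by the authors' FPKM in WT, Ifi27l2a was highest at 395 ± 26.3 FPKM in KO and 490 ± 112 FPKM in WT (SD, n = 3 each). Samd9l followed at 76.2 ± 7.03 FPKM in KO and 104 ± 3.47 FPKM in WT, and the WT ranges of these 2 genes did not overlap. The WT range of Samd9l was also clear of that of Sp100, the next at 88.0 ± 2.68 FPKM in KO and 91.2 ± 2.93 FPKM in WT, while those of Sp100 and Bst2 overlapped. From Epsti1 to Trim25 each gene's WT range overlapped that of the next. Rsad2, Phf11d and Ifi44 were lowest, at 1.57, 0.513 and 0.465 FPKM in KO and 3.14, 0.614 and 0.433 FPKM in WT. The 4 most negative log2 fold changes belonged to Rsad2, Mx1, Mx2 and Cmpk2, all under 10 FPKM in both groups.

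Across libraries, WT replicate 2 was most often the highest and KO replicate 6 most often the lowest. WT replicate 2 held the highest value of all 6 libraries for 28 genes (77.8%, against 16.4% of all genes tested). KO replicate 6 held the lowest for 20 genes (55.6%, against 17.7% of all genes). The median deviation of the 36 genes from their 6-library means was -0.05, -0.02 and -0.17 on the log2 scale in KO replicates 4, 5 and 6 and -0.08, 0.28 and 0.09 in WT replicates 1, 2 and 3. WT replicate 1 was thus within the range of the KO libraries, and it lay below the KO mean for 16 of the 36 genes. Summed over the 36 genes, levels were 3991, 4008 and 3705 CPM in KO and 4098, 4875 and 4391 CPM in WT. Mx1, Mx2, Rsad2, Cmpk2 and Tor3a had their highest value in WT replicate 3. In those 5 genes KO replicate 5 was the highest of the KO libraries.

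**Figure D3:**
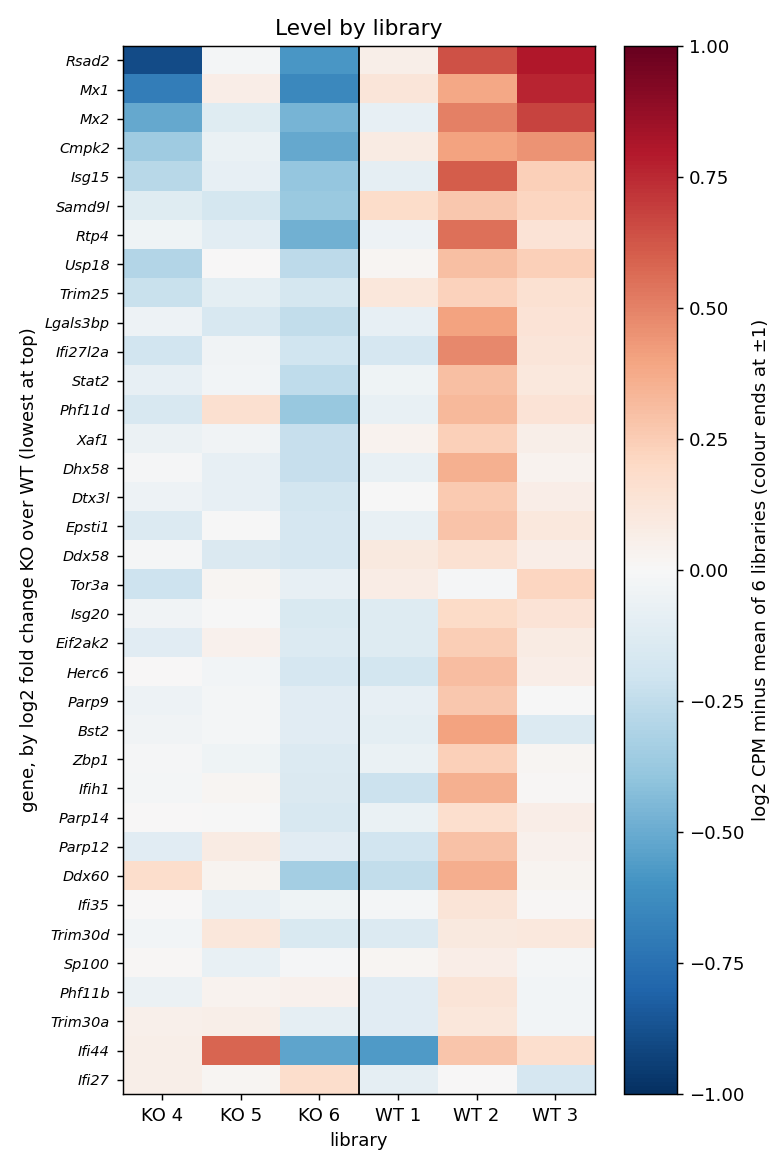
Level of each gene (rows, ordered by log2 fold change with the most negative at the top) in KO replicates 4 to 6 (left of the line) and WT replicates 1 to 3 (right), as log2 CPM minus the mean over the 6 libraries. WT replicate 2 is red in nearly every row, and in the top rows of Rsad2, Mx1 and Mx2 it is exceeded by WT replicate 3.

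B cell marker signal ran in another order within WT. It was highest in WT replicate 1 (2151 CPM), where the median of the 36 genes was lowest among WT libraries, and lowest in WT replicate 2 (1169 CPM), where that median was highest. Of the 16 B cell markers 1 was called lower by edgeR, 13 by DESeq2 and 6 by limma-voom, with 0 higher by any of them, a median log2 fold change of -1.92 and none at 0 counts. With the mean log2 level of these markers as a covariate, 0 of the 36 genes passed by edgeR, but calls over all genes also dropped, to 15 lower (0.11%). An unadjusted p under 0.05 was found for 21 of the 36 and for 9.36% of all genes, and the smallest adjusted p was 0.0756, for Lgals3bp. The median log2 fold change was then -0.42. The marker sums did not overlap between the groups, at 334.6 to 556.7 CPM in KO and 1169 to 2151 CPM in WT. Without Cd72 the sums were 381.9, 513.5 and 293.4 CPM in KO and 2065, 610.4 and 1580 CPM in WT replicates 1, 2 and 3. WT replicate 2 then lay nearer to KO replicate 5 than to the other WT libraries. Apart from WT replicate 2, genotype and B cell signal went together, so a fit with this covariate cannot separate them. With that covariate and without WT replicate 2, a fit chosen after seeing the data, the median was 0.02 and 18 of the 36 were negative. Without WT replicates 1 and 3, which held the most B cell transcript, 13 of the 36 passed downward (0.688% of all genes called lower) and the median was -0.37. That fit keeps a single WT library, replicate 2, the highest of the 6 libraries for 28 of the 36 genes, which is assumed to vary as the KO ones do.

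Transcripts of plasmacytoid dendritic cells, potent producers of type I interferon, were scarce. Siglech, their surface lectin, had 0.858, 0.810 and 0.904 CPM in KO and 1.66, 2.76 and 1.83 CPM in WT, and was lower in KO by a log2 fold change of -1.27 (SE 0.32; adjusted p = 0.0313, edgeR). The call was lost in 5 of the 6 fits that left out 1 library, at adjusted p-values of 0.0685 to 0.109. WT replicate 2 was highest, as it was for most of the 36 genes. Klk1 and Cox6a2, also markers of these cells, were at 0 in all KO libraries and at most 0.364 CPM in WT. Both were highest in WT replicate 2, as was Ccr9 of the same list. Ccr9 had 9.96, 6.91 and 9.76 CPM in KO and 11.1, 12.9 and 12.3 CPM in WT (edgeR adjusted p = 0.0993). Lifr and Smim5 of that list were instead lowest among WT libraries in replicate 2. Lifr had 11.9, 2.91 and 3.43 CPM and Smim5 1.52, 0.624 and 1.16 CPM in WT replicates 1, 2 and 3. Of the 8 markers 6 were tested, and Siglech and Tcf4 fell by edgeR. DESeq2 called 3 of the list lower and limma-voom 1, while 0 rose by any of these tests. An unadjusted edgeR p under 0.05 was found for 4 downward and 1 upward. Tcf4 was highest in WT replicates 1 and 3, at 24.7 CPM in each, and lost its call in 5 of the 6 fits. The list summed to 130.8 to 162.9 CPM in KO and 143.9 to 158.4 CPM in WT, most of it Pacsin1, at 109 to 137 CPM in KO and 105 to 109 CPM in WT. Monocyte and macrophage markers summed to 27.1 to 45.9 CPM in KO and 34.6 to 50.03 CPM in WT, and conventional dendritic cell markers to 27.7 to 49.0 CPM in KO and 47.5 to 151.5 CPM in WT. Wdfy4 carried the difference in the dendritic cell sum, with 13.1 to 30.4 CPM in KO and 129, 34.9 and 101 CPM in WT replicates 1, 2 and 3, in the WT order of the B cell markers, and the median log2 fold change of that list was 0.05. Of the 7 monocyte and macrophage markers tested, 0 passed by edgeR, DESeq2 or limma-voom, and 0 had an unadjusted p under 0.05. Of the 6 conventional dendritic cell markers tested, 0 passed by edgeR or limma-voom, while 2 were lower by DESeq2 and at an unadjusted p under 0.05. CD8 T and NK cell markers came to 33.8 to 43.3 CPM in KO and 46.4 to 51.6 CPM in WT, with 0 of 6 passing by edgeR, DESeq2 or limma-voom and 2 lower at an unadjusted p under 0.05. Of 10 T cell markers Cd28 rose (adjusted p = 0.00817 by edgeR, and 0.052 without WT replicate 3), with sums of 4545 to 4890 CPM in KO and 4205 to 4598 CPM in WT. The 8 Treg markers summed to 4499 to 4833 CPM in KO and 3647 to 4269 CPM in WT, and Ctla4 and Nrp1 rose among them by edgeR. DESeq2 and limma-voom each called 2 of the list higher, and 0 fell by any of these tests. An unadjusted edgeR p under 0.05 was found for 5 upward and 1 downward. Gpr83 went the other way, with a log2 fold change of -0.24 (SE 0.10; adjusted p = 0.191, edgeR). The part that other cells in the sort had in the levels of the 36 genes was not tested.

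**Figure D4:**
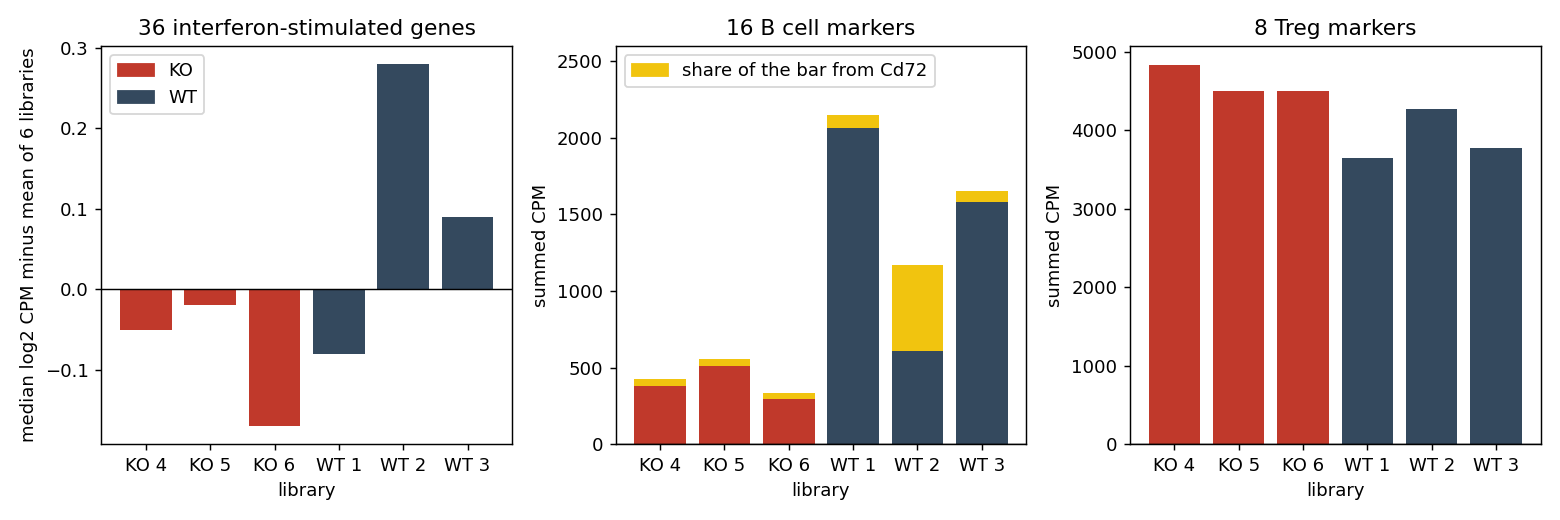
Median level of the 36 interferon-stimulated genes relative to their 6-library means (left), summed level of 16 B cell markers with the part from Cd72 in yellow (middle) and summed level of 8 Treg markers (right), for KO replicates 4 to 6 and WT replicates 1 to 3. WT replicate 2 is highest in the left panel at 0.28, while WT replicate 1 is highest in the middle panel at 2151 CPM.

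In the pathway around these genes, a list of 53 ligand, receptor, kinase, adaptor and inhibitor genes, 43 could be tested, of which 2 fell, 2 rose and 39 did not pass. Over all genes tested, 2.83% (385 genes) were called lower and 3.68% higher. Without WT replicate 2, 6 pathway genes fell, while the genes called lower in all rose to 738 (5.26%). Without any 1 of KO replicates 4, 5 and 6 or WT replicate 3, 1 fell, with 128 to 367 genes called lower in all. Interferon messages other than Ifng were nearly absent. The 9 listed ligands, Ifnb1 among them, held 4 counts in KO and 0 in WT in all, where 3 counts in a library correspond to 0.142 to 0.166 CPM. Ifng, the type II interferon, rose to 11.2 ± 0.898 CPM in KO, against 4.18 ± 0.744 CPM in WT (SD, n = 3 each), with an edgeR adjusted p of 0.000226. Irf1, a transcription factor induced by interferon-gamma above all, had 473.5, 447.0 and 441.3 CPM in KO and 292.9, 341.9 and 307.0 CPM in WT, a log2 fold change of 0.53 (SE 0.06; adjusted p = 0.000354, edgeR).

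Ifnar1, Ifnar2, Irf9 and Irf7 did not pass. On the log2 scale Ifnar1 differed by 0.01 (SE 0.06) and Ifnar2 by 0.21 (SE 0.06, edgeR adjusted p = 0.0581). Irf9 averaged 218.2 ± 5.07 CPM in KO and 241.0 ± 25.4 CPM in WT (SD, n = 3 each). Irf7, which amplifies interferon production, had 88.7, 97.6 and 78.8 CPM in KO and 105.9, 150.4 and 124.5 CPM in WT. It had no overlap between the groups and WT replicate 2 on top, but an edgeR adjusted p of 0.0897. The 2 pathway genes that fell were Tlr7, an endosomal RNA sensor, and Ptpn6, the phosphatase SHP-1. Tlr7 had 52.1, 51.5 and 45.7 CPM in KO and 63.0, 73.0 and 65.5 CPM in WT, a log2 fold change of -0.43 (SE 0.07; adjusted p = 0.00444, edgeR). Ptpn6 had 303.4, 287.4 and 305.3 CPM in KO and 420.9, 331.6 and 395.7 CPM in WT, with the WT libraries in the order of their B cell marker sums (edgeR adjusted p = 0.0206). Ptpn6 kept its call in 1 of the 6 fits without 1 library, that without WT replicate 2, and had adjusted p-values of 0.0587 to 0.0988 in the other fits. Ifng, Irf1 and Tlr7 passed in all 6. The part of B cell transcripts in the level of Ptpn6 was not tested.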

How the data were processed

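RNA was sequenced in 6 libraries of sorted Tregs, 3 KO and 3 WT. The submitters' processing notes name bcl2fastq, STAR 2.4.2a, DESeq2 and the build GRCm38. The counting program and strand setting were not found in the labels or notes. Files deposited by the authors held raw counts per Ensembl gene, normalized counts and FPKM. The deposited normalized counts are a signal, equal to the raw counts over 1 factor per library for 99.9% of 10164 genes within 1e-06. The authors' FPKM differed from that signal by 1 constant per gene for 99.98% of those genes. Symbols and positions came by gene ID from GENCODE M21, which matched 35412 of 37187 IDs; promoters came from RefSeq.

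The main test was edgeR 4.0.16 (R 4.3.3) on raw counts, KO over WT: filterByExpr, TMM factors, a robust quasi-likelihood F-test and Benjamini-Hochberg adjustment over 13626 genes at 0.05. Standard errors were derived from the F statistic. The test was tried on simulated counts (5 draws, 200 of 13626 genes changed between KO and WT). It found 22.8% of the 1.25-fold changes, 68.0% at 1.5-fold, 81.6% at 2-fold and 93.2% at 4-fold, and 2.78% of its calls were false. Simulated counts were drawn gene by gene, with no shift shared by many genes of one library. Their spread was that typical of genes at the same level, not each gene's own. These shares may therefore not hold for the real libraries or for genes that scatter more. Libraries of one group differed by more than sampling noise, with a chi-square per degree of freedom of 5.16 to 14.6. Alternatives were DESeq2 1.42.0, limma 3.58.1 with voom or on log2(FPKM + 1) and log2(FPKM + 0.1), RLE factors, other filters (none, or at least 1 CPM in 3 samples), leaving out libraries and a B cell marker covariate.

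The 36 genes, the marker and pathway lists and the tests were chosen with earlier results of these data known. All 36 were named, with values in every library for those that passed and for 8 fixed genes (Stat2, Isg15, Mx1, Ifih1, Ddx58, Usp18, Bst2 and Zbp1). Rsad2, Ifi27 and Ifi27l2a were also given so, after their values were seen. Pathway genes named were those that passed plus Ifnar1, Ifnar2, Irf9 and Irf7; 1 further gene of that rule is not reported here. Promoters were to be those of fallen genes with an ISRE; there were none, so the 4 shown were chosen later. The limit of 3 counts reflects counting error alone.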

Additional observations from a re-analysis of the deposited data

How the results depend on the processing

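Upward, 0 of the 36 genes passed under any alternative run. RLE factors and the filter of at least 1 CPM in 3 samples left all 36 on the same side of the threshold. DESeq2 called 11 of the 36 lower, with 617 genes in all and 5 pathway genes. Without a filter the counts were 14, 839 and 4, with 806 genes and 4 pathway genes higher. The number of genes tested without a filter or on FPKM is not given here. Those counts therefore cannot be set beside the shares of the main fit. limma-voom called 4 (Samd9l, Mx1, Cmpk2 and Trim25). limma on log2(FPKM + 1) called 2 (Samd9l and Trim25), 135 genes lower, 268 higher and 1 pathway gene lower; with + 0.1 these were 2, 151, 262 and 1. With the B cell covariate they were 0, 15, 22 and 0, with 1 pathway gene higher, a median log2 fold change of -0.42, and Phf11b at -0.21, Trim30a at -0.12 and Ifi27 at -0.01. Leaving out WT replicates 1 and 3 gave 13 of the 36, 100 genes lower, 182 higher and a median of -0.37, with Phf11b at -0.12, Trim30a at -0.10 and Ifi44 at -0.17. A pair of fits was chosen after seeing the data. The covariate without WT replicate 2 gave 0 of the 36, 2 genes lower, 0 higher, 0 and 0 pathway genes and a median of 0.02. The covariate without Cd72 gave 1 (Lgals3bp), 28 lower, 49 higher, 0 pathway genes lower, 1 higher and a median of -0.39. The cause was not tested. Leaving out 1 library gave 2 to 11 of the 36 lower, 128 to 738 genes lower, 239 to 626 higher, 1 to 6 pathway genes lower, 2 to 3 higher and a median of -0.25 to -0.10. The sign then turned in some fits for Trim30a (-0.04 to 0.09), Phf11b (-0.04 to 0.08), Ifi44 (-0.21 to 0.36), Ddx60 (-0.24 to 0.08), Trim30d (-0.12 to 0.02), Ifih1 (-0.24 to 0.06), Bst2 (-0.23 to 0.07) and Parp12 (-0.22 to 0.03). No paired analysis was possible because the replicate numbers of KO (4 to 6) and WT (1 to 3) are not shared. Low counts limit Ifi44 and Phf11d, with at most 84 and 61 counts in a library.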
